A study of Homo sapiens with 8 samples.

Results

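The guides described here target genes that the deposited table types as non-essential controls. The criterion behind that type is not given in the sources used here. They were taken as every guide of that type and grouped by gene, whatever its measured value. There were 1992 of them, 4.25% of the 46829 guides in the table, on 698 exon-exon junctions of 413 genes out of 1250 genes in all. The screen was run in A375, an established human melanoma line, as 1 monoclonal line with RfxCas13d under a doxycycline-inducible TetO promoter, into which the guides were delivered by lentivirus. It has 8 libraries: Day 0 without treatment, then Day 7, Day 14 and Day 21 with doxycycline at 1 ug/ml, all in 2 replicates. The Cas13d line, the induction system and the guide pool were common to all libraries. The table holds guide abundance and no expression values, so the identity of the cells rests on the labels and was not checked against melanocyte markers.

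RfxCas13d is an RNA-guided nuclease that cuts RNA and leaves the gene itself intact, so a guide lowers a transcript without a break in the DNA. A guide that spans an exon-exon junction can bind only transcripts that join those exons. In a pooled growth screen, guides whose carrier cells divide less become rarer, and guides against genes the cells can do without mark how far abundance moves when the target is not needed. Non-targeting guides, which match no transcript by design, mark how far it moves with no target at all.

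The control set was small and evenly built. It covered 1 junction in 138 genes, 2 junctions in 265 and 3 junctions in 10, and 615 of the 698 junctions carried 3 guides. A gene had 6 guides in 206 cases and 3 guides in 120, with 9 guides at most. The number that ends each guide's identifier was 3, 4 or 5 for every control guide, with 666, 665 and 661 guides, whereas the other gene-targeting guides ran from 1 to 8 and 37.5% of them carried one of those 3 numbers. What that number stands for is not given in the sources used here. All 413 genes matched a protein-coding RefSeq gene of GRCh38.p14, 407 by symbol and the others by a synonym, and 696 of the 698 junctions lay inside the span of the matched gene. The junctions were spread over 23 chromosomes, with 372 on the plus strand and 326 on the minus strand. They spanned 68 to 154957 bp of genome, with a median of 1691.5 bp.

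Each value is a log2 fold change of a guide's abundance from the Day 0 library of the same replicate. Read depth was not stated. The whole-number structure of the values implied a median Day 0 number of at least 93 for control guides in replicate 1 and 125 in replicate 2, against 104 and 139 for the 963 non-targeting guides. Those numbers are lower bounds, and so are the later numbers scaled to them. An implied number of 1 may therefore mark the floor of measurement, below which no loss could be measured. The deposited table calls the 2 replicates biological, but what was kept separate between them is not given in the sources used here. The p-values cover no variation beyond these libraries. The moderation in limma draws their spread partly from all guides or genes together.

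The first question was whether guides against control genes kept the abundance of non-targeting guides. The medians of the 2 classes differed by less than the spread between replicates at every day. At Day 21 the median log2 fold change of control guides was -0.074 in replicate 1 and 0.030 in replicate 2, and that of non-targeting guides was -0.038 and 0.00093. The difference was -0.0037 ± 0.047 (SD, n = 2), with opposite signs in the 2 replicates. It was -0.034 ± 0.084 at Day 14 and 0.017 ± 0.058 at Day 7, again with opposite signs.

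The tails were wider than those of non-targeting guides in both replicates. The SD over guides at Day 21 was 1.35 and 1.38 for control guides and 1.12 and 1.15 for non-targeting guides. The gap in SD, taken within each replicate, was 0.23 ± 0.00056 (SD, n = 2) at Day 21, 0.17 ± 0.012 at Day 14 and 0.060 ± 0.022 at Day 7. Guides at or below -1, a loss to at most 1 in every 2 copies, made up 22.9% and 20.2% of control guides at Day 21, against 17.2% and 16.4% of non-targeting guides. The excess was 4.76 percentage points ± 1.33 (SD, n = 2) and was positive in both replicates. At Day 14 it was 4.02 ± 2.11 percentage points, again positive in both. At Day 7 it was 0.641 ± 1.02, with opposite signs. On the other side, guides at or above 1 made up 16.2% and 18.9% of control guides and 13.1% and 16.7% of non-targeting guides, an excess of 2.62 ± 0.653 percentage points. With 2 replicates an exact two-sided sign-flip test cannot go below p = 0.5, so these differences are set against the replicate spread alone.

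Losses seen in both replicates were also more frequent among control guides. At Day 21, 144 control guides (7.23%) and 36 non-targeting guides were at or below -1 in both replicates, the latter 3.74% of their class. At or below -2 in both there were 41 control guides (2.06%) and 2 non-targeting guides (0.208%). At or above 1 in both there were 69 control guides (3.46%) and 22 non-targeting guides (2.28%). A further 123 control guides (6.17%) were past 1 in opposite directions in the 2 replicates, as were 40 non-targeting guides (4.15%). Across guides, which are not independent replicates and share libraries, the correlation between replicates was 0.096, 0.27 and 0.23 at Day 7, Day 14 and Day 21 for control guides. For non-targeting guides it was 0.037, 0.046 and 0.034. Spearman's coefficient at Day 21 was 0.11 for control guides and 0.016 for non-targeting guides. Guides at an implied number of 1 at Day 21 numbered 17 and 10 of the control guides in replicates 1 and 2, and 3 and 1 of the non-targeting guides.

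Single guides were tested with limma, and calls were made where the p-value, adjusted by Benjamini-Hochberg over all 46829 guides, was under 0.05. At Day 21, 54 control guides were called lower (2.71%) and 5 higher (0.251%), where 11.1% and 0.218% of all guides were. Among non-targeting guides 10 were called lower (1.04%) and 0 higher, with 40 at an unadjusted p under 0.05 in either direction. At Day 14, 28 control guides were called lower and 1 higher, where 7.96% and 0.0128% of all guides were, and 1 non-targeting guide was called. At Day 7 there were 6 lower and 0 higher, where 2.1% and 0.00641% of all guides were. At that day 89 control guides had an unadjusted limma p under 0.05. Fitting the 3 days together, with replicate as a block, called 270 control guides at Day 21, 170 of them lower, and fitting them together without the block called 98, 73 of them lower. The block takes each guide's replicate difference out of the error. Both joint fits treat the days of a replicate as independent, although they share a Day 0 library, so these counts are not stronger evidence. Centred on the median of all guides, the split at Day 21 was 38 lower and 9 higher.

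The 54 lower guides lay in 40 genes. Their mean log2 fold changes ran from -6.64 to -2.42, with a median of -3.54. Moderation in limma gave them similar standard errors whatever their replicates did. The SE was 0.81 for guide 3 of C11orf24 (SD 0.034) and 0.98 for guide 4 of TNFRSF19 (SD 4.45). A called guide therefore need not be low in both replicates. The TNFRSF19 guide read -0.79 and -7.09 and guide 4 of LGALS8 -6.07 and -0.33, both named after their values were seen. Of the 54, 26 were also called lower at Day 14 and 6 at Day 7, and 3 were at an implied number of 1 in both replicates at Day 21. In 10 genes at least 2 guides were called: C11orf24, CAMSAP2, CEP170, DDR2, DEPDC1, MTHFD1L, PSIP1, RAP1A, RBPJ and UBE3B. The 5 lowest were the 3 guides at 1 junction of CEP170, guide 5 of ZDHHC7 and guide 5 of MTHFD1L. The ZDHHC7 guide, at chr16:84978005-84979188 on the minus strand, read -1.48 and -1.67 at Day 7, -4.01 and -6.93 at Day 14, and -6.20 and -6.66 at Day 21. It was low in both replicates from Day 7 on, while the other guides to its junction read -5.77 and -3.38 in replicate 1 but 0.97 and 0.28 in replicate 2 at Day 21. The 6 guides called at Day 7 included 2 of CEP170 and 1 each of ZDHHC7, MTHFD1L, C11orf24 and CUL4A. CUL4A, the scaffold of a ubiquitin ligase, had 1 of the lowest guides of the set, named after its values were seen. That guide read -1.71 and -1.78 at Day 7, -3.97 and -7.26 at Day 14, and -4.72 and -6.99 at Day 21. It was low in every library.

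The 5 guides called higher at Day 21 belonged to 5 genes. The highest was guide 5 of TRIP12, a HECT-type ubiquitin ligase, at chr2:229767750-229768615 on the minus strand. It read 0.15 and 0.78 at Day 7, 2.00 and 3.14 at Day 14, and 2.81 and 5.29 at Day 21, and its implied number in replicate 2 went from 110 at Day 0 to 4722 at Day 21. Its mean was 4.05 (SE 0.84, limma adjusted p = 0.00056). The guides of KLHL8, a substrate adaptor of a ubiquitin ligase, TIAL1, an RNA-binding protein, and ATG16L1, needed for autophagosome formation, had Day 21 means of 2.95, 2.65 and 2.54. That of CYB561, a transmembrane cytochrome, had 3.04 with an implied Day 0 number of 27 in replicate 2, and it is named after its values were seen. None of these 5 genes was among the genes called higher at Day 21. As genes, TRIP12 and TIAL1 were called higher at Day 14 and rose in the limma test of Day 21 minus Day 7.

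At gene level, the mean over a gene's guides was tested in the 394 control genes with at least 3 guides. The other 19 genes, with 36 guides, were not tested. At Day 21, 20 control genes were called lower (5.08%) and 7 higher (1.78%), where 20.8% and 0.654% of all 1223 genes tested were. Controls therefore held 7 of the 8 genes called higher in the whole table. Of the 350 genes typed as not essential under Cas13, 23 were called lower (6.57%) and 1 higher (0.286%), with more guides per gene. Single guides called higher at Day 21 were as frequent in that class, at 0.255%, as in controls, at 0.251%. At Day 14 the control genes gave 26 lower and 7 higher, where 22.1% and 0.736% of all genes were, and at Day 7 they gave 3 lower and 1 higher, where 3.92% and 0.0818% were. The gene called higher at Day 7 was ATOX1, a copper chaperone, with a mean of 0.65 and 0.55 at that day, and it is named after its values were seen.

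The gene calls depend on the setting. The main fit used 1 prior spread for all genes, so its p-values may be too small for genes with few guides. At Day 7, 11.2% of control genes and 5.43% of genes typed not essential under Cas13 had an unadjusted limma p under 0.05. A prior spread by number of guides, chosen after seeing the data, called 42 control genes at Day 21. It kept 24 of the 27 called above, and CUTA, MTCH1 and SLC41A1 lost their call. Fitting the 3 days together with the replicate block called 144 control genes at Day 21, 90 lower and 54 higher, and kept all 27. Without the block the joint fit called 77, 49 lower and 28 higher, and kept 26. The block takes each gene's replicate difference out of the error. Both joint fits also treat the days of a replicate as independent, although they share a Day 0 library, so their larger counts are not stronger evidence. Taking the median of a gene's guides in place of the mean called 0 genes at Day 21, lower or higher, with 74 at an unadjusted limma p under 0.05. Centring on the non-targeting median, which lay at -0.018 on average at Day 21, kept 14 of the 27. Centring on the median of all guides, which lay at -0.31, kept 4. No sign turned in either, but shifts of this size could turn none, since the called mean nearest 0 was -0.74. The 4 were C11orf24, CEP170, PSIP1 and HIVEP3. With guides limited to an implied Day 0 number of at least 50, 21 of the 27 were still tested, and AZIN1, CASP8 and IL24 lost their call. At Day 14 that second centring gave 9 lower and 10 higher.

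Most control genes stayed near 0. The median gene mean at Day 21 was -0.055, against -0.28 over all 1223 genes tested, and the middle 50% of control genes lay between -0.36 and 0.23. In both replicates 128 genes were below 0 and 98 above, 17 were at or below -1 and 2 at or above 1. Gene means correlated between replicates with r = 0.22 at Day 7, 0.47 at Day 14 and 0.48 at Day 21, over 394 genes that share the libraries. Genes with 3 guides spread more widely than those with 6, with an SD of gene means of 0.78 against 0.56.

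CEP170, a centrosomal and microtubule-binding protein, was among the lowest, and its 2 junctions behaved differently. Its gene mean was -0.91 and -2.66 at Day 7, -2.73 and -4.04 at Day 14, and -3.43 and -4.26 at Day 21. The mean was low in all 6 libraries, and at -3.85 (SE 0.27, limma adjusted p = 0.011) the gene was called at all 3 days. At the junction chr1:243126738-243128248, minus strand, the 3 guides read -5.12, -6.04 and -6.00 at Day 21 in replicate 1 and -7.11, -7.24 and -7.24 in replicate 2. At the neighbouring junction chr1:243128300-243129359 they read -1.34, -0.03 and -2.07 in replicate 1 and 0.21, -0.34 and -3.87 in replicate 2. The guide means of the 2 junctions were -6.46 ± 1.04 and -1.24 ± 0.132 (SD, n = 2). The first junction lay entirely below the second, and the gap of 5.22 was the widest between the junctions of any of the 248 control genes where 2 junctions were compared.

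PSIP1 encodes LEDGF, a chromatin-tethering protein. Its single junction, chr9:15478552-15479590 on the minus strand, had gene means of -0.38 and -1.39 at Day 7, -1.88 and -4.15 at Day 14, and -3.25 and -4.06 at Day 21. At Day 21 its 3 guides read -3.18, -1.41 and -5.15 in replicate 1 and -2.93, -4.93 and -4.31 in replicate 2. Every guide was below -1 in both replicates, and the Day 21 mean was -3.65 (SE 0.26, limma adjusted p = 0.011). PSIP1 was called at Day 14 and Day 21.

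C11orf24, an integral membrane protein, had 3 guides on the junction chr11:68262918-68263691 of the minus strand. Its gene means were -1.04 and -0.50 at Day 7, -2.01 and -2.47 at Day 14, and -3.55 and -4.16 at Day 21. The Day 21 mean was -3.85 (SE 0.22, limma adjusted p = 0.011), and the gene was called at all 3 days. The guides did not move together: at Day 21 guide 3 read -5.96 and -6.01, guide 5 read -1.48 and -7.14, and guide 4 read -3.20 and 0.68.

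MTHFD1L, the mitochondrial enzyme that releases formate from folate-bound units, was the third gene called at all 3 days. Its means were -0.78 and -0.83 at Day 7, -2.45 and -1.71 at Day 14, and -3.77 and -2.63 at Day 21, and the Day 21 mean was -3.20 (SE 0.34, limma adjusted p = 0.016). At the junction chr6:150877826-150882761 of the plus strand its 3 guides had a mean of -4.18 and -4.35 at Day 21. At the next junction, chr6:150882886-150885633, the 2 guides read -0.014 and -6.26 in replicate 1 and -0.82 and 0.69 in replicate 2, so this junction was low in 1 replicate through 1 guide. SUCO, a membrane protein with a SUN domain, had means of -2.59 and -4.42 at Day 21 over 3 guides, all below -1 in both replicates. It was not called at Day 7, where it read 0.017 and -0.86.

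The other 10 of the 15 lowest genes among those called at Day 21 had means from -2.08 to -1.22. In order they were ZDHHC7, a palmitoyltransferase (-2.08), CAMSAP2, a binder of microtubule minus ends (-1.97), C8orf58 (-1.86), RAP1B, a Ras-family GTPase (-1.71), and DEPDC1, a DEP-domain protein (-1.67). Then came CALU, a calcium-binding protein of the secretory pathway (-1.47), TCF12, a helix-loop-helix transcription factor (-1.41), ASXL1, a chromatin regulator of the Polycomb group (-1.39), INIP, a subunit of a single-stranded DNA-binding complex (-1.38), and AZIN1, an inhibitor of antizyme (-1.22). Their limma adjusted p ran from 0.015 for RAP1B to 0.0497 for AZIN1. All had a gene mean below 0 in both replicates at Day 21.

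In several of these a minority of guides carried the gene mean. ASXL1 had means of -1.47 and -1.30 at Day 21, and its guide 4 at chr20:32432985-32433283 read -6.70 and -3.70. The 3 guides at its other junction, chr20:32431484-32431582, all lay below 0, the lowest of these values being -1.13. Without its lowest guide the ASXL1 mean was -0.62. RAP1B had guide values of -1.52, -3.09 and -0.018 in replicate 1 and 0.031, -5.68 and 0.042 in replicate 2, and without its lowest guide its mean was -0.77 in replicate 1 and 0.036 in replicate 2. It was the single gene of the 20 called lower whose 2 replicate means were not both below 0 after that removal. DEPDC1 had 3 junctions with means of -3.60 ± 0.548, -0.38 ± 1.57 and -0.60 ± 0.732 (SD, n = 2), and each of the 3 guides at the lowest one, chr1:68479320-68481439, was below -1 in both replicates.

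The same removal over all 20 lower genes moved the median of their means from -1.57 to -1.07, and 12 of the 18 that were at or below -1 stayed there. Of their 97 guides, 69 (71.1%) were below 0 in both replicates. In 5 genes every guide was, and in 5 others at least 1 guide was above 0 in both replicates. Since the genes were called on these same values, the counts describe how the calls were made up and support nothing. In the 367 genes that were not called, 25.5% of guides were below 0 in both replicates and 25.7% above.

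The 7 genes called higher were NSD1, HIVEP3, APOO, SLC41A1, SPTAN1, CASP8 and CUTA, with means from 1.33 down to 0.82. NSD1, a histone methyltransferase of lysine 36 on H3, had gene means of 0.34 and 0.0064 at Day 7, 1.06 and 0.61 at Day 14, and 1.55 and 1.098 at Day 21. Its mean was 1.33 (SE 0.19, limma adjusted p = 0.025). At the junction chr5:177292158-177293831, plus strand, its 3 guides read 0.95, 2.71 and 1.87 in replicate 1 and 2.10, 1.96 and 2.33 in replicate 2 at Day 21. At chr5:177283928-177288818 they read 0.69, 1.00 and 2.10 in replicate 1 and 0.15, 0.77 and -0.72 in replicate 2. Of its 6 guides, 5 were above 0 in both replicates.

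HIVEP3, a large zinc finger protein, had means of 0.33 and 0.70 at Day 7, 0.28 and 0.84 at Day 14, and 1.12 and 1.19 at Day 21, all above 0. Its 3 guides read 1.29, 0.048 and 2.02 in replicate 1 and 0.86, 2.61 and 0.099 in replicate 2 at Day 21. So its replicate means nearly coincided while the guides behind them changed places, and its adjusted p of 0.021 from limma rests on the gene means alone. APOO, a subunit of the mitochondrial cristae-organising complex, had 0.84 and 1.23 at Day 21, and SLC41A1, a magnesium transporter, had 0.77 and 1.13. Every guide of these 3 genes was above 0 in both replicates.

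CASP8, the initiator caspase of death-receptor signalling, had Day 21 means of 1.01 and 0.84 and was also called higher at Day 14. Its junction means were 0.84 ± 0.318 and 1.05 ± 0.171 (SD, n = 2). SPTAN1, the alpha chain of non-erythroid spectrin, had 0.73 and 1.13, with junction means of 0.88 ± 0.809 and 0.98 ± 0.244. Its partner SPTBN1, the beta chain, read -0.37 and 0.069 and was not called, and it is named after its values were seen. CUTA had 0.81 and 0.83.

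Most calls came after Day 7. Control genes called in either direction numbered 4 at Day 7, 33 at Day 14 and 27 at Day 21, where 4.01%, 22.8% and 21.4% of all genes were. In the limma test of Day 21 minus Day 7, 27 control guides fell and 1 rose, where 6.4% and 0.032% of all guides did. In the same test at gene level, 38 control genes fell (9.64%) and 13 rose (3.30%), where 23.5% and 1.23% of all genes did. The 3 genes called lower at Day 7, C11orf24, CEP170 and MTHFD1L, were called lower at every day. Of the genes called lower, 14 were shared between Day 14 and Day 21, which is 53.8% of the Day 14 genes and 70.0% of the Day 21 genes. Both days start from the same Day 0 libraries, so the overlap is given as a count and not as independent evidence. Genes called lower at Day 14 and not at Day 21 were CALD1, DDR2, DENND5B, ERBIN, ITFG1, MTF2, NNT, TBX3, TNFRSF19, UBL7, YAP1 and ZBTB44, of which only NNT and ZBTB44 come from the rule for named genes. Those called higher at Day 14 and not at Day 21 were TBC1D7, TIAL1 and TRIP12. ZBTB44, a zinc finger protein, had Day 21 means of -2.87 and -1.20, low in both replicates, with a limma adjusted p of 0.068. NNT, the mitochondrial transhydrogenase, had -1.16 and -0.31 with 0.154.

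Guides to the same junction share their target, and their values were compared between replicates to keep the libraries apart. At Day 21 a guide's value in one replicate correlated with its own value in the other at 0.23 over 1992 ordered pairs. Against the other guides of the same junction the correlation was 0.15 over 3818 pairs, and against guides on another junction of the same gene it was 0.066 over 4820 pairs. At Day 7 the 3 values were 0.096, 0.077 and 0.044. In guides numbered 3 to 5 of genes typed not essential under Cas13 the Day 21 values were 0.36, 0.23 and 0.14. For 248 control genes the mean of one junction in one replicate correlated with the mean of the other junction in the other replicate at 0.085 or 0.25, depending on which replicate was taken for which junction. The 2 junctions of a gene differed by a median of 0.51 at Day 21.

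Whole junctions rarely moved as a block. Among the 615 control junctions with 3 guides, all 3 guides were at or below -1 in both replicates at 3 junctions (0.488%), those of CEP170, DEPDC1 and PSIP1. The share was 1.70% of 1883 such sets of 3 guides in genes typed not essential under Cas13 and 8.69% of 3268 in genes typed essential. All 3 guides were below 0 in both replicates at 18 control junctions (2.93%) and above 0 at 17 (2.76%). The share above 0 was 2.12% in genes typed not essential and 0.979% in genes typed essential.

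Gene lists by role were matched by symbol, so they are incomplete and can hold genes of another role. The kinase and phosphatase list took in CDK5RAP2 by its CDK prefix, and the transport list took in every TMEM symbol. The lists showed few called members. For comparison, 5.08% of all control genes were called lower at Day 21 and 1.78% higher, and a single call in a list of this size shows nothing particular to it. Of 11 small GTPases and their regulators, 2 were called lower and 0 higher, with a median Day 21 mean of -0.62, against -0.055 for all control genes. The 2 were RAP1B and its close paralogue RAP1A, which lay beyond the rule for named genes. RAP1A had means of -1.07 and -1.12, and its 3 guides at chr1:111709264-111712430 averaged -1.85 while the single guide at its other junction read 1.65 and 0.72. Without its lowest guide the RAP1A mean was -0.23. Whether guides to one paralogue also match the other was not analysed here. TBC1D7, a subunit of the tuberous sclerosis complex, was the highest of that list at 0.63, from 0.95 and 0.31, and was not called at Day 21.

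Among 7 tested chromatin modifiers and among 5 growth-restraining genes the same pair was called, ASXL1 lower and NSD1 higher, and the list medians were -0.24 and -0.13. Of 19 transcription factors, TCF12 was called lower and 0 were called higher, with a median of -0.11. ZBTB44 was the lowest of them at -2.04 and MEIS2, a homeobox factor, the highest at 0.52, and neither was called. Of 16 genes of the ubiquitin system, USP53, a member of the deubiquitinase family named after its values were seen, was called lower, and the median was -0.22. On that list KLHL7, an adaptor of a ubiquitin ligase, was the lowest at -1.07 and KLHL8 the highest at 0.59, and neither was called. The list does not hold the ubiquitin ligase gene TRIP12, described above, which was not called as a gene at Day 21. KLHL8 read 0.15 and 1.04 in replicates 1 and 2, and its guide means ran from -1.60 to 2.95.

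Of 9 cytoskeletal genes, the formin FMNL2 was called lower at -1.14 and SPTAN1 higher, with a median of -0.052. FMNL2 guides at chr2:152640056-152640790 read -3.01, -2.16 and 1.00 in replicate 1 and -6.82, -1.997 and 1.27 in replicate 2, with the same guide above 0 in both. Of the 3 genes on the microtubule list CEP170 was called lower and the median was -0.83, with TTC39C the highest at -0.35 from -0.048 and -0.65. That list does not hold CAMSAP2, described above, which was also called lower. Of 15 genes on the transport list SLC41A1 was called higher and 0 lower, with a median of 0.088. That list includes TMEM107, TMEM120A, TMEM161B and TMEM9B, placed by symbol alone. ABCC4, a drug and nucleotide exporter, was the lowest at -0.44, with -1.19 in replicate 1 and 0.31 in replicate 2.

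No member was called at Day 21 in 4 other lists. The 15 tested genes on the kinase and phosphatase list had a median of 0.16. They ran from SYNJ2, a phosphoinositide phosphatase, at -0.62 to PPP6R3, a regulatory subunit of phosphatase 6, at 0.58. SYNJ2 read -0.18 and -1.07 and PPP6R3 -0.11 and 1.27 in replicates 1 and 2, so the sign of PPP6R3 differed between them. The 8 endocytosis and autophagy genes had a median of 0.13 and ran from SNX8, a sorting nexin, at -0.50 to SEC24B, a coat protein of vesicles leaving the endoplasmic reticulum, at 0.59. SNX8 read -1.50 and 0.49, on opposite sides of 0, and SEC24B 0.31 and 0.87. The 6 genes on the metabolic list, which does not hold the called enzyme gene MTHFD1L, had a median of -0.28 and ran from NNT at -0.74 to PDE1C, a cyclic nucleotide phosphodiesterase, at 0.26. PDE1C read 0.61 and -0.097, on opposite sides of 0. The list of ribosome, splicing and polymerase symbols held 2 tested genes with a median of 0.062, the splicing gene SNRPB2 and RPS6KA3, which is a kinase that the symbol match placed there. The list of MAPK and melanocyte growth genes held 0 control genes, and 1 matrix and adhesion gene was tested and not called. Across lists 120 of the 413 control genes were placed, some in more than 1 list.

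The 5 control genes with 9 guides that come first by symbol are given as examples, whatever their values. AFAP1L2, an actin-associated adaptor, had Day 21 means of -1.08 and 0.62, on opposite sides of 0. NFIB, a nuclear factor I protein, had -1.34 and -0.29, with guide means from -4.79 to 0.86. MEIS2 had 0.28 and 0.75, PCGF5, a Polycomb ring finger protein, had 0.61 and 0.26, and SFXN4, a mitochondrial sideroflexin, had 0.49 and 0.14. None of the 5 was called at any day.

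Gene means at Day 21 had little relation to the features of the targets. As a description over the 394 genes, which share all libraries, Spearman's rho was -0.044 with the mean junction span, -0.074 with RefSeq gene length and -0.026 with the number of RefSeq transcripts. It was 0.00015 with the number of guides and -0.017 with the mean implied Day 0 number. Guides numbered 3, 4 and 5 had Day 21 medians of -0.12, -0.074 and 0.0042 in replicate 1 and 0.15, 0.0036 and -0.060 in replicate 2. The order of the 3 numbers was opposite in the 2 replicates.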

How the data were processed

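Guide cassettes were amplified by PCR from genomic DNA, and log2 fold changes from Day 0 were deposited by the authors as 1 table, per the file headers, whose entries are single guides in single libraries. The submitters' processing notes name cutadapt 3.5, Bowtie 1.1.2 and hg38, with no role. Counting, scaling and any pseudocount are not given in the sources used here. Junction coordinates are those of the deposited table.

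With no counts, limma 3.58.1 in R 4.3.3 tested the mean of the 2 replicate values against 0 at each day, with empirical Bayes moderation and Benjamini-Hochberg adjustment over 46829 guides or over 1223 genes with at least 3 guides. The fits were also run on simulated normal values with 200 planted changes and a spread drawn from limma's own prior. That run checks the code and not the calls, since it held no floor values and no shared Day 0 library. In each of the 6 libraries 100% of values were a constant plus the log2 of one whole number over another, the lower one not above 2000 (relative tolerance 1e-11). The implied Day 0 numbers come from those ratios.

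The members and lists were chosen with earlier results of these data known. Named genes were those called at Day 21 (at most the 15 lowest and 10 highest), the 5 with most guides, and the lowest and highest of each list with at least 3 tested control genes. Named guides were the 5 lowest and highest called ones whose implied Day 0 number reached 50 in both replicates. Replicate numbers pair libraries through the labels, and each fold change already subtracts the Day 0 library of its own replicate. Over control guides, deviations from the day mean correlated within a replicate at 0.50 (Day 7 with 14), 0.40 (7 with 21) and 0.71 (14 with 21). Over non-targeting guides the values were 0.52, 0.45 and 0.71. All days of a replicate share its Day 0 library, so a positive correlation is built in and cannot test the pairing. Alternatives covered centring, the fit, the filters and the gene summary. Guide sequences were not used here.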

Additional observations from a re-analysis of the deposited data

Results flagged for a closer look

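In the genes named by rule, 22 for their Day 21 call and 18 by the other rules, the limma test of Day 21 minus Day 7 gave 24 differences between the time points. Across all 1223 genes it gave 302 (24.7%). Most of the named genes were chosen by Day 21 values that enter this difference, so a higher share is built into the choice and is no support. Both days are measured from the same Day 0 libraries, so the difference is between the Day 21 and Day 7 libraries of each replicate.

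Among genes called lower at Day 21, the fall since Day 7 was largest in SUCO at -3.09, C11orf24 at -3.08 and PSIP1 at -2.77. It was -2.40 in MTHFD1L, -2.07 in CEP170, -1.83 in ZDHHC7, -1.69 in CAMSAP2 and -1.44 in RAP1B. It was -1.32 in C8orf58, -1.32 in ASXL1, -1.28 in AZIN1, -1.22 in DEPDC1 and -1.21 in TCF12. CALU, INIP and FMNL2 gave -1.08, -0.99 and -0.93.

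Among genes not called at Day 21, ZBTB44 gave -1.60, KLHL7 -0.95 and NNT -0.71. Upward differences were 1.15 in NSD1, 0.90 in APOO, 0.84 in SPTAN1, 0.73 in CASP8 and 0.64 in HIVEP3, the last with a limma adjusted p of 0.0496.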

How the results depend on the processing

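With 1 replicate left out, the Day 21 median difference from non-targeting guides ran from -0.037 to 0.029 (Day 14 -0.093 to 0.026, Day 7 -0.024 to 0.059). The excess at or below -1 ran from 3.82 to 5.70 percentage points (Day 14 2.53 to 5.51, Day 7 -0.079 to 1.36). Using means moved the Day 21 difference to -0.078, and a bound of -2 moved the excess to 2.94. The replicate block gave 1, 71 and 270 guides and 1, 87 and 144 genes at Day 7, 14 and 21. It takes the replicate difference out of the error. Without the block, 1 fit of all days gave 0, 18 and 98 guides (11 at an unadjusted limma p under 0.05 at Day 7), 0 genes at Day 7 (15 unadjusted), 77 at Day 21, and 20 for Day 21 minus Day 7. Centring on all guides gave 0 genes at Day 7 (62 unadjusted), 19 at Day 14, 4 at Day 21 and 16 for the difference. Gene medians gave 9, 5, 0 and 3, and centring on non-targeting guides gave 14 at Day 21. Robust moderation gave 1 gene at Day 7, an implied Day 0 number of at least 50 gave 0 there (42 unadjusted), and at least 5 guides gave 32 for the difference, with fewer genes tested. A prior spread by number of guides, chosen after seeing the data, gave 42 at Day 21 and 31 for the difference. The other causes were not tested. Of the 27 genes called at Day 21, none changed sign in any of these settings in which it was tested. Most settings could not turn a sign. The joint fits, robust moderation, the minimum of 5 guides and the prior by number of guides keep the gene mean, and centring moved it too little. The gene median and the Day 0 number filter could have turned one. Losses below the floor of measurement, which an implied number of 1 may mark, could not be measured, and 2 replicates limit every test.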
